A study of Rattus norvegicus with 6 samples.

Results

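Retinoid metabolism and the response to retinoic acid were followed through 9 genes, Stra6, Dhrs3, Aldh1a1, Aldh1a2, Aldh1a3, Crabp1, Crabp2, Rarb and Cyp26b1, out of 21857 gene symbols in the count tables. They were picked by symbol, with their levels in these same libraries already known, so their own values are given as a description without a test. The cells were neonatal rat cardiac fibroblasts (NRCFs), primary cells from the hearts of Sprague-Dawley rats taken within 3 days of birth, although the strain label reads "Noway". Of the 6 RNA-seq libraries, 3 came from cells given the control plasmid (Vector, genotype label WT) and 3 from cells given a plasmid with the rat FTO sequence (genotype label FTO overexpression). Both groups went through transfection, and no source used here says whether the replicates came from separate animals or cultures, so p-values measure only the spread between these samples, which may be technical. The column names of the count tables carry a code that differs between the groups and whose meaning is not given, so anything that follows this code cannot be told apart from the group.

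Retinol (vitamin A) enters cells through membrane receptors, is oxidised to retinal and then to retinoic acid, and retinoic acid binds nuclear receptors that switch genes on or off. Retinal dehydrogenases of the ALDH1A family carry out the last step of synthesis, and enzymes of the CYP26 family break retinoic acid down. In the developing heart ALDH1A2 is known as the enzyme of the epicardium, the outer cell layer from which many cardiac fibroblasts descend. Several genes of the pathway are themselves switched on by retinoic acid in other cells, Rarb, Dhrs3 and the CYP26 genes among them.

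Each library held 13178952 to 17857999 counts. Levels are given as CPM, the counts of a gene per fixed number of counts in its library (cpm of edgeR), corrected for library composition (TMM scaling), with the SD over 3 libraries. Fto, the gene on the plasmid, was at 87.8, 89.6 and 87.4 CPM in Vector and at 93.2, 90.8 and 92.9 CPM in the other group, a fold change of 1.05 (95% interval 0.955 to 1.14) with an adjusted p of 0.239 in the edgeR quasi-likelihood test, although the ranges of the groups were apart. No rise of the targeted gene was thus detected, and the second group is called the libraries labelled FTO. Across 12941 genes tested, 65.9% differed between the groups at an adjusted p under 0.05, which splits into 33.2% upwards and 32.8% downwards, and 70.3% had groups whose CPM ranges were apart.

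The 9 genes did not move as a unit. Aldh1a1 was 51.7-fold lower in the libraries labelled FTO, whereas Rarb was 4.75-fold, Aldh1a2 2.97-fold and Cyp26b1 2.75-fold higher. Dhrs3 and Aldh1a3 had overlapping groups. Crabp2 was lower at about 1 CPM or less, and Stra6 and Crabp1 were near 0 counts. The low-count filter left 7 of the 9, and 5 of these 7 passed the adjusted threshold, 3 higher and 2 lower, beside the 65.9% of all genes. Since the genes were chosen on this contrast, nothing is read from that count.

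**Figure D1:**
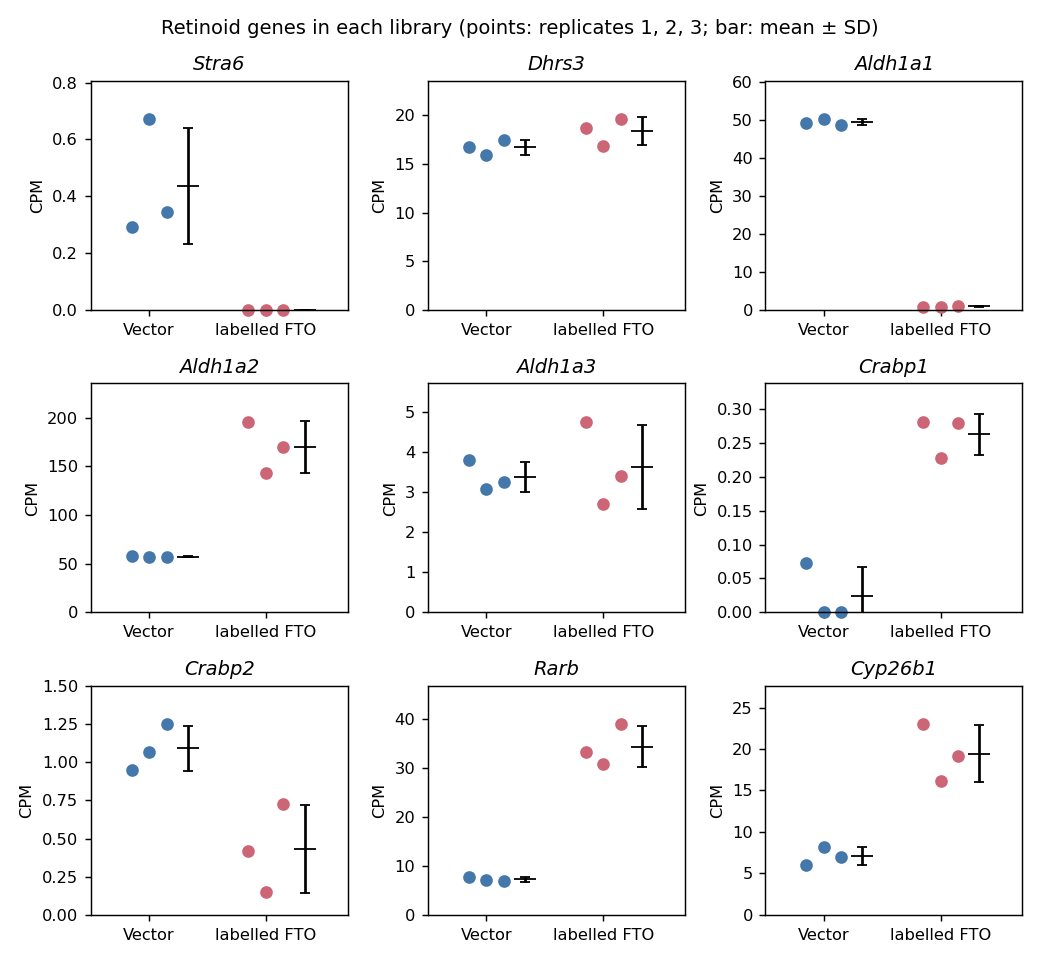
CPM (y axis, linear, own scale in each panel) of each of the 9 retinoid genes in the 3 Vector libraries (blue) and the 3 libraries labelled FTO (red). Points are replicates 1, 2 and 3 from left to right, and the black mark is the mean ± SD of each group. The lower bar of Crabp1 in Vector is cut at 0. Aldh1a1 lay near 49 CPM in Vector and near 1 CPM in the libraries labelled FTO, Aldh1a2, Rarb and Cyp26b1 lay higher in each library labelled FTO than in any Vector library, and the groups overlapped for Dhrs3 and Aldh1a3.

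Stra6 encodes the membrane receptor that takes up retinol from its plasma carrier. It had 4, 10 and 5 counts in Vector replicates 1, 2 and 3 and 0 in each library labelled FTO. Summed over a group this was 19 counts against 0, and a count of 0 allows up to 3 counts. Set against that floor, with the Vector counts taken as exact, Stra6 was at least 6.65-fold lower. With the counting error of both groups, the 95% interval of the ratio to Vector reached up to 0.204, a weaker bound. Even in Vector the level was 0.440 CPM (95% Poisson interval 0.265 to 0.687).

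Dhrs3 encodes a reductase that turns retinal back into retinol and so holds back the making of retinoic acid. Its CPM was 16.7, 15.9 and 17.5 in Vector and 18.7, 16.8 and 19.6 in the libraries labelled FTO, which is 16.7 ± 0.809 against 18.4 ± 1.40. The lowest library labelled FTO lay inside the Vector range. The log2 fold change was 0.14 (SE 0.0912).

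Among the retinal dehydrogenases, Aldh1a1 and Aldh1a2 moved in opposite directions. Aldh1a1 was at 49.2, 50.2 and 48.8 CPM in Vector, from 673 to 748 counts per library, and at 0.842, 0.906 and 1.12 CPM in the libraries labelled FTO, from 12 to 20 counts. The groups stood far apart. The log2 fold change was -5.66 (SE 0.119), and of the other 12940 genes tested only 15 had a larger decrease. Aldh1a2 was at 57.6, 56.7 and 57.0 CPM in Vector and at 196, 143 and 170 CPM in the libraries labelled FTO, a log2 fold change of 1.57 (SE 0.0861). The Vector libraries were nearly equal, while the libraries labelled FTO differed among themselves by 1.37-fold, with replicate 1 highest and replicate 2 lowest. Aldh1a3 was at 3.80, 3.09 and 3.25 CPM in Vector and at 4.77, 2.72 and 3.41 CPM in the libraries labelled FTO. These libraries lay on both sides of the Vector values, with a log2 fold change of 0.11 (SE 0.215) that turned to -0.13 without FTO replicate 1.

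Of all counts on the 3 dehydrogenase genes, Aldh1a1 held 45.0% ± 0.598 in Vector and 0.558% ± 0.122 in the libraries labelled FTO (SD, n = 3 each). The share of Aldh1a2 went from 52.0% ± 0.373 to 97.4% ± 0.160. The share of Aldh1a3 was 3.08% ± 0.326 and 2.06% ± 0.273. These shares are of counts and take no account of transcript length, so they show the change between the groups and not which enzyme had more transcripts. The summed CPM of the 3 genes was 110 ± 0.815 in Vector and 174 ± 27.3 in the libraries labelled FTO, 1.59-fold higher. A close relative of Aldh1a1 in rodents, Aldh1a7, had 3 to 10 counts in Vector and 15 to 32 in the libraries labelled FTO (log2 fold change 1.86, SE 0.408, adjusted p = 9.5e-04 in edgeR), few beside the 673 to 748 counts of Aldh1a1 in Vector.

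**Figure D2:**
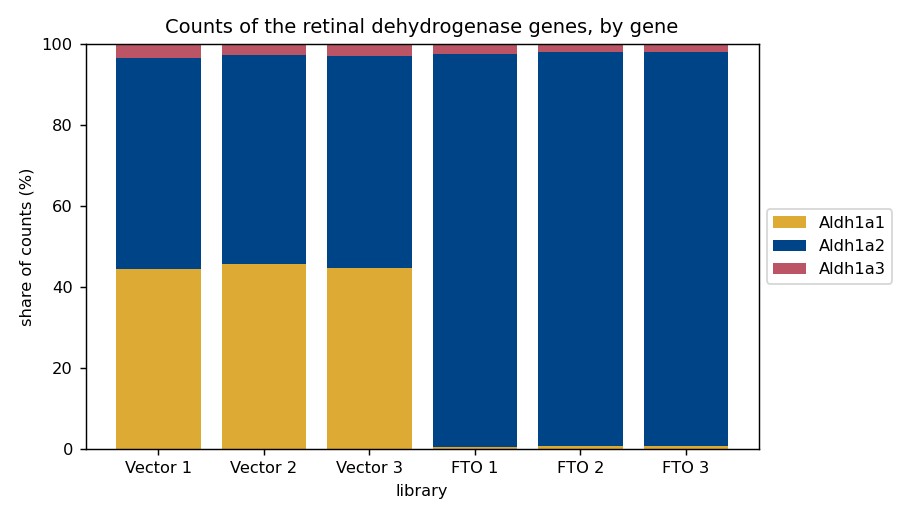
Share of counts (y axis, %) of Aldh1a1, Aldh1a2 and Aldh1a3 among the counts of the 3 retinal dehydrogenase genes, for each of the 6 libraries (x axis). Aldh1a1 held 44.5% to 45.6% in the Vector libraries and 0.418% to 0.641% in the libraries labelled FTO, where Aldh1a2 held 97.2% to 97.5%.

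The sequence before the start of these genes is shown because paralogous enzymes moved apart. Promoters were taken from RefSeq on the GRCr8 build, 250 bases before to 50 after each start, and matched all 9 genes. The stretches below are the last 150 bases before each start, 5′ to 3′, at chr1:227537470-227537619 (plus strand) and chr8:80758491-80758640 (plus strand). Capitals mark the letters ATGCAAAT, known as the octamer bound by POU factors, and CCAAT, both searched on both strands after the values were seen.
Aldh1a1: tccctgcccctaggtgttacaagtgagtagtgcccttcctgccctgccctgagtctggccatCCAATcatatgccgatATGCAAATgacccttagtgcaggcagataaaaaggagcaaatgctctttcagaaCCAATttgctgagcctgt
Aldh1a2: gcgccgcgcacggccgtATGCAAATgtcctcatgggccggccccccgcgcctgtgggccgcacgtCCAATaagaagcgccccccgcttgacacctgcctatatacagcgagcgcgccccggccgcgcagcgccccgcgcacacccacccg
Aldh1a1 and Aldh1a2 were the only 2 of the 9 promoters with ATGCAAAT, which occurs in 1.78% of all 33469 promoters, while CCAAT occurs in 37.5% and both together in 0.914%. The promoters differ in base composition, with 48.3% G and C in Aldh1a1 and 76% in Aldh1a2, against a median of 51.7%. The observed over expected ratio of CpG was 0.0573 in Aldh1a1, the lowest of the 9, and 1.09 in Aldh1a2, the highest. A match of letters is a description and not a bound site.

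Crabp1 and Crabp2 encode small proteins that bind retinoic acid in the cytosol, CRABP2 being known for handing it to its nuclear receptor. Crabp1 had 1, 0 and 0 counts in Vector and 4, 3 and 5 in the libraries labelled FTO. The ratio of the summed levels was 11.4 with a 95% counting interval of 1.69 to 489, so its size is not known at this depth. Crabp2 had 13, 16 and 18 counts in Vector and 6, 2 and 13 in the libraries labelled FTO, that is 1.09 ± 0.148 against 0.433 ± 0.288 CPM. Its groups did not overlap in CPM, but the libraries labelled FTO differed by 4.81-fold among themselves. The log2 fold change was -1.23 (SE 0.428), -0.88 without FTO replicate 2 and -1.88 without FTO replicate 3. Crabp2 no longer passed the adjusted threshold when Vector replicate 3, FTO replicate 1 or FTO replicate 2 was left out, which leaves 4 of the 9 genes past it.

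Rarb encodes retinoic acid receptor β, a nuclear receptor whose gene is a known target of retinoic acid through an element in its own promoter. It was at 7.75, 7.11 and 6.86 CPM in Vector and at 33.3, 30.9 and 39.0 CPM in the libraries labelled FTO. Each library labelled FTO was over 4 times the Vector mean. The log2 fold change was 2.26 (SE 0.109), and 498 of the other 12940 genes tested had a larger increase. Cyp26b1 encodes a cytochrome P450 that breaks down retinoic acid. Its CPM was 6.07, 8.19 and 6.99 in Vector and 23.0, 16.2 and 19.1 in the libraries labelled FTO, a log2 fold change of 1.45 (SE 0.142). As for Aldh1a2, replicate 1 was the highest and replicate 2 the lowest of the libraries labelled FTO. Cyp26a1, the other well-known breakdown enzyme of this family and a textbook target of retinoic acid, had 1 count in all 6 libraries together.

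The promoters were searched on both strands for direct repeats of the unit AGGTCA, the unit GGTTCA, the unit AGTTCA or the unit GGGTCA, alone or mixed, spaced by 1, 2 or 5 bases, which are the letters of retinoic acid response elements and include those of the known Rarb element. The Rarb window is shown because it was the only 1 of the 9 with such a repeat, and Cyp26a1 because it was the only other pathway gene with 1, of 56 matched. Capitals mark the 2 repeat units. The Rarb stretch is at chr15:11336410-11336439 (plus strand), with the repeat from base 25 to 41 after the start, and the Cyp26a1 stretch at chr1:244883724-244883753 (plus strand), with the repeat from -92 to -76.
Rarb: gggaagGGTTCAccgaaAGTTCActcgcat
Cyp26a1: taaagaTGAACTttgggTGAACTaatttgt
Both repeats have a spacing of 5, a spacing found in 0.382% of all promoters, and any of the 3 spacings occurs in 0.777%. Rarb was higher in the libraries labelled FTO, whereas Cyp26a1 was hardly counted in any library. No match in the other 8 windows says only that these letters are not in those 300 bases.

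To see the rest of the pathway, 5 further lists of retinoid genes were compared, without the 9 genes. Of 74 listed genes present in the tables, 51 passed the low-count filter and 40 of these (78.4%) were called by edgeR at the adjusted threshold, 23 higher and 17 lower, beside 65.9% of all genes. The median log2 fold change was 0.11, and 0.00 over all genes tested. Of 8 genes for uptake and carriage of retinoids 7 were higher and 0 lower, with a median of 1.35, whereas of 13 receptors and cofactors 0 were higher and 10 lower, with a median of -0.46. The difference between these lists was not tested. Lrp1, at 0.00 with all libraries, was called lower without FTO replicate 3 (log2 fold change -0.14, adjusted p = 0.0116 in edgeR).

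**Figure D3:**
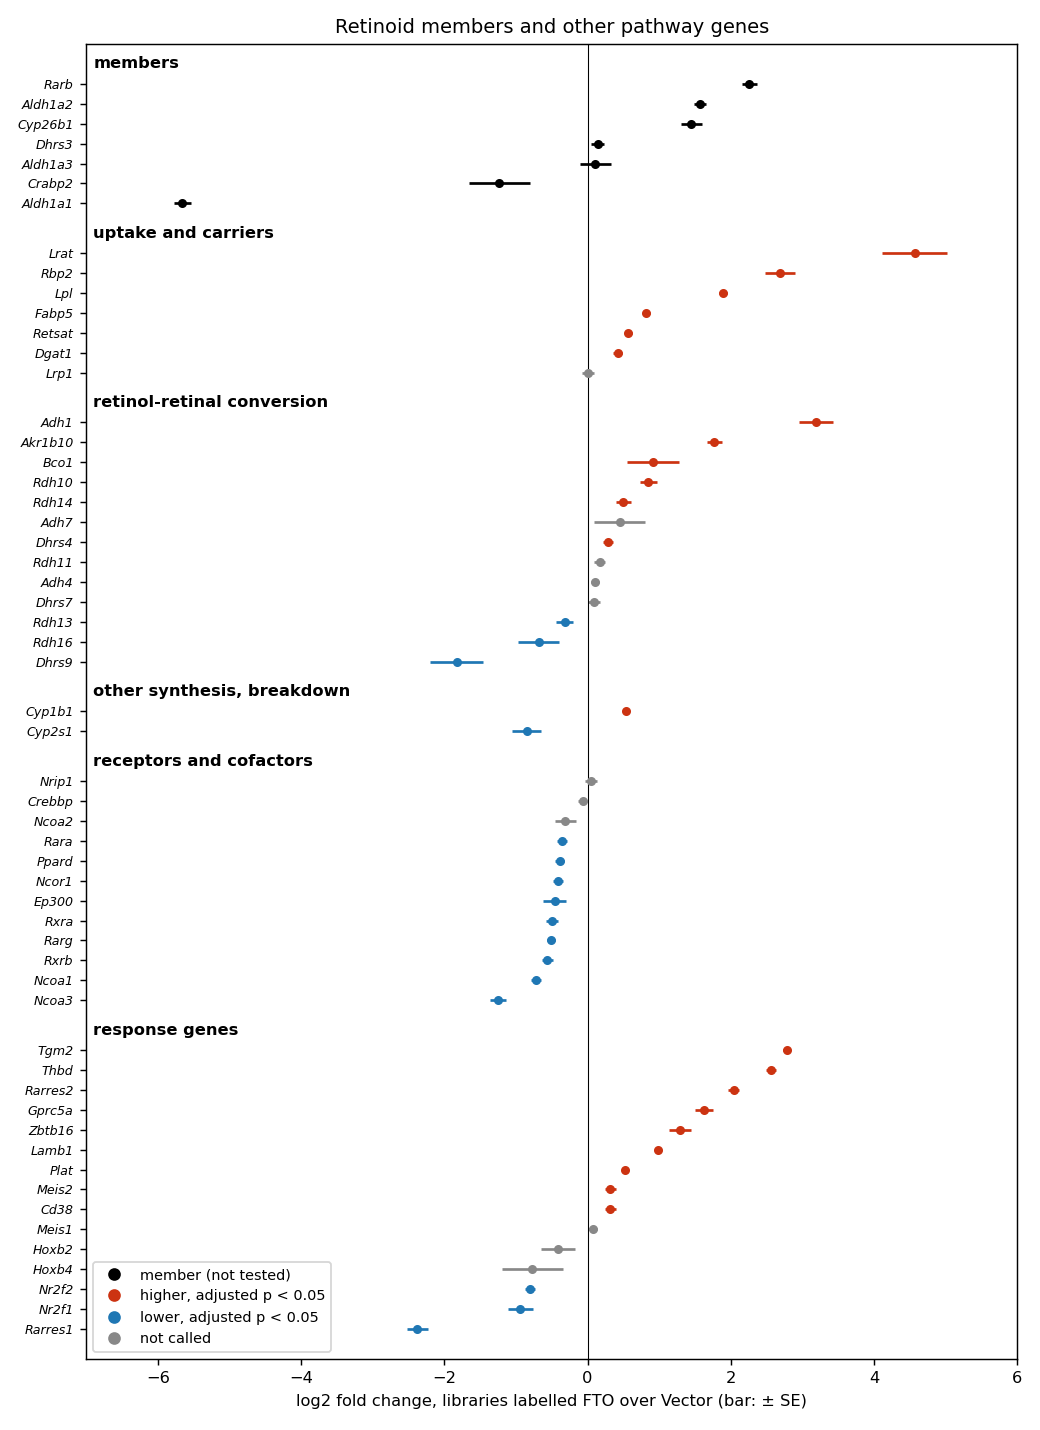
Log2 ratio of libraries labelled FTO to Vector (x axis, bars ± SE) for genes that passed the low-count filter, grouped by role, without those not reported here. Black points are the 7 retinoid genes chosen on this contrast, and red, blue and grey points are other pathway genes that were higher, lower or not called at an adjusted p under 0.05 in edgeR. The uptake and carrier genes lie to the right of 0 except Lrp1 at 0.00, and the receptors and cofactors lie to the left except Nrip1 at 0.05.

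Among the carriers, Rbp2, a retinol-binding protein best known from the intestine, rose from 1.31 ± 0.455 to 8.46 ± 0.407 CPM (log2 fold change 2.69, SE 0.206, adjusted p = 1.7e-08 in edgeR). Lpl, the lipase that frees retinoids carried in lipoproteins, rose from 197 ± 4.79 to 728 ± 57.0 CPM (1.89, SE 0.0537, adjusted p = 9.0e-14 in edgeR). Fabp5, Retsat and Dgat1 rose by 0.82, 0.57 and 0.42 on the log2 scale. Lrat, the enzyme that esterifies retinol for storage, was singled out after its values were seen. It had 3, 0 and 2 counts in Vector and 48, 34 and 52 in the libraries labelled FTO, a ratio of summed levels of 25.5 with a 95% counting interval of 10.7 to 79.9. Rbp4, the plasma carrier that the Stra6 receptor recognises, had 4 counts in Vector and 19 in the libraries labelled FTO in all.

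Of 13 tested genes that convert retinol and retinal into each other or cleave carotenoids, 6 were higher and 3 lower, so that 69.2% were called, beside 65.9% of all genes. Rdh10, the main retinol dehydrogenase of the embryo, rose from 6.91 ± 0.509 to 12.4 ± 0.584 CPM (log2 fold change 0.85, SE 0.115, adjusted p = 1.0e-05 in edgeR). Adh1, an alcohol dehydrogenase that also oxidises retinol, rose from 0.738 ± 0.215 to 6.87 ± 0.980 CPM (3.19, SE 0.239, adjusted p = 1.3e-08 in edgeR). Akr1b10, a reductase able to turn retinal into retinol, rose from 77.0 ± 2.14 to 264 ± 51.3 CPM (1.77, SE 0.101, adjusted p = 4.2e-10 in edgeR). Whether reads of close relatives were counted with Adh1 or Akr1b10 was not checked, and their counts are uncertain to that extent. Bco1, also among the 6 higher, had few counts and overlapping groups (0.91, SE 0.365, adjusted p = 0.0390 in edgeR). Its call was lost in 6 alternatives. The 3 that were lower were Dhrs9, Rdh13 and Rdh16, of which Dhrs9 and Rdh16 lie below 50 counts on average and are named with their values seen. Dhrs9, a retinol dehydrogenase, fell from 1.68 ± 0.295 to 0.478 ± 0.212 CPM (-1.83, SE 0.365, adjusted p = 4.2e-04 in edgeR) and was called in all 13 alternatives. Rdh13 was lower at -0.32 (SE 0.119, adjusted p = 0.0299 in edgeR), a call lost with DESeq2 (adjusted p = 0.0927) and on leaving out Vector replicate 1, 2 or 3 or FTO replicate 1 or 2 (adjusted p from 0.0540 to 0.0891 in edgeR). Rdh16 was lower at -0.68 (SE 0.286, adjusted p = 0.0471 in edgeR), a call lost in 9 alternatives. Only Dhrs9 of the 3 was still called with DESeq2 and without Vector replicate 2 or 3 or FTO replicate 1 or 2. Of other genes listed for the synthesis or breakdown of retinoic acid, Cyp1b1 rose from 519 ± 6.18 to 754 ± 25.0 CPM (0.54, SE 0.0395, adjusted p = 9.9e-09 in edgeR). Cyp2s1, named with its values seen, fell from 3.87 ± 0.504 to 2.13 ± 0.285 CPM (-0.85, SE 0.202, adjusted p = 0.00183 in edgeR). Cyp26c1 had 3 counts in all.

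The paralogs of Rarb moved the other way. Rara and Rarg, which encode the remaining retinoic acid receptors, fell from 52.1 ± 3.82 to 40.4 ± 1.94 CPM and from 63.1 ± 2.23 to 44.4 ± 1.96 CPM. Their log2 fold changes were -0.36 (SE 0.0685, adjusted p = 2.5e-04 in edgeR) and -0.51 (SE 0.0591, adjusted p = 2.1e-06). Rxra and Rxrb, the retinoid X receptors with which they pair, fell from 42.2 ± 1.12 to 29.6 ± 4.07 CPM and from 33.5 ± 1.39 to 22.7 ± 2.17 CPM (-0.50, SE 0.0856, adjusted p = 1.0e-04 and -0.56, SE 0.0814, adjusted p = 2.2e-05 in edgeR). Among the cofactors, the coactivators Ncoa3 and Ncoa1 fell from 41.6 ± 2.89 to 17.4 ± 3.45 CPM and from 50.5 ± 1.25 to 30.5 ± 1.60 CPM (-1.25, SE 0.110, adjusted p = 9.0e-08 and -0.72, SE 0.0642, adjusted p = 9.4e-08 in edgeR). The corepressor Ncor1, named with its values seen, also fell (-0.41, SE 0.0702, adjusted p = 1.1e-04 in edgeR). Ncoa2 (-0.31), Crebbp (-0.07) and Nrip1 (0.05) were not called. Rarb was the only retinoic acid receptor gene that was higher, and Rxrg was near 0 with 0 to 4 counts per library.

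Of 25 genes known from other cells to respond to retinoic acid, 15 were tested, of which 9 were higher and 3 lower, so that 80.0% were called, beside 65.9% of all genes. Tgm2, which encodes tissue transglutaminase, rose from 276 ± 6.41 to 1892 ± 140 CPM (log2 fold change 2.78, SE 0.0534, adjusted p = 8.3e-16 in edgeR). Thbd, which encodes thrombomodulin, rose from 10.3 ± 0.638 to 60.5 ± 1.68 CPM (2.56, SE 0.0745, adjusted p = 1.2e-13 in edgeR), and Rarres2, which encodes chemerin, from 18.5 ± 1.39 to 75.8 ± 5.84 CPM (2.04, SE 0.0773, adjusted p = 3.1e-12 in edgeR). The 3 that fell were Rarres1, from 12.4 ± 0.360 to 2.39 ± 0.359 CPM (-2.38, SE 0.146, adjusted p = 1.1e-09 in edgeR), and the orphan receptors Nr2f1 (-0.94, SE 0.177, adjusted p = 2.7e-04) and Nr2f2 (-0.80, SE 0.0680, adjusted p = 5.9e-08). Hoxa4, Hoxa5, Hoxb1 and Pck1 had no count in any library, and Stra8 had a mean of 0.167 counts. Many of these genes also answer to other signals.

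Markers of other cell types moved between the groups as well. Their counts stand beside 65.9% of all genes tested that were called, 33.2% higher and 32.8% lower. All of 9 macrophage markers differed in edgeR, 8 lower and Adgre1 higher, and their summed level went from 593 to 617 CPM in Vector to 146 to 165 CPM in the libraries labelled FTO, 3.82-fold lower, against 51.7-fold for Aldh1a1. In the libraries labelled FTO this sum leans on Cd68, Mrc1 and the risen Adgre1, at 51.0, 47.5 and 31.7 CPM. No marker of that list was at 0 in all libraries, and the decreases differed widely within it. C1qb, a complement gene, fell from 19.7 ± 0.870 to 0.0858 ± 0.0226 CPM (log2 fold change -7.67), C1qa from 56.4 ± 3.24 to 1.44 ± 0.279 CPM (-5.31) and Csf1r, a growth factor receptor, from 142 ± 2.31 to 9.18 ± 1.29 CPM (-3.96), while Cd68 fell by 1.13 on the log2 scale. Of 11 tested epicardial markers 8 were higher and 2 lower, with a summed level of 105 to 109 CPM in Vector and 240 to 264 CPM in the libraries labelled FTO, 2.34-fold higher, against 2.97-fold for Aldh1a2. Wt1 rose from 18.5 ± 1.08 to 26.4 ± 0.871 CPM and Tbx18 from 23.7 ± 2.52 to 70.6 ± 4.40 CPM, while Sema3d and Upk3b fell from 40.7 ± 0.881 to 15.1 ± 3.64 CPM and from 4.61 ± 0.322 to 2.58 ± 0.535 CPM. Msln, a mesothelial gene, went from 2.83 ± 0.678 to 87.1 ± 5.64 CPM, and the sum leans on it and on Tbx18. Of 10 fibroblast markers 5 were higher and 5 lower. Their summed level was 41419 to 42004 CPM in Vector and 21576 to 22559 CPM in the libraries labelled FTO. This sum leans on Col1a1 and on Col3a1, at 10699 ± 90.0 and 3338 ± 363 CPM, so its fall does not stand for each marker. Pdgfra was at 173 ± 5.02 and 976 ± 91.0 CPM, Dcn at 47.0 ± 1.57 and 5611 ± 221 CPM and Col1a1 at 25809 ± 337 and 8268 ± 377 CPM. Of 8 cardiomyocyte markers 7 were higher, and the median log2 fold change of the 8 was 1.17. Only Tnnt2 was lower, from 770 ± 7.94 to 649 ± 22.0 CPM. The summed level of the 8, which leans on Tnnt2, was 1201 to 1225 CPM in Vector and 1549 to 1618 CPM in the libraries labelled FTO. For 8 endothelial markers it was 121 to 128 and 109 to 116 CPM, and for 7 mural markers 1273 to 1325 and 1287 to 1370 CPM, but these sums hide changes in opposite directions. Of 6 endothelial markers tested 3 were higher, among them Kdr by 4.39-fold, and 2 lower, among them the abundant Flt1. Of 6 mural markers tested 3 were higher, among them Kcnj8 by 29.7-fold, and 3 lower, among them Notch3 from 226 ± 7.55 to 14.9 ± 2.98 CPM. For 5 Schwann or neural markers it was 19.6 to 24.1 and 9.44 to 9.61 CPM. In these bulk samples fewer cells of a type and less RNA per cell cannot be told apart, and the part of these cells in the retinoid values was not tested.

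**Figure D4:**
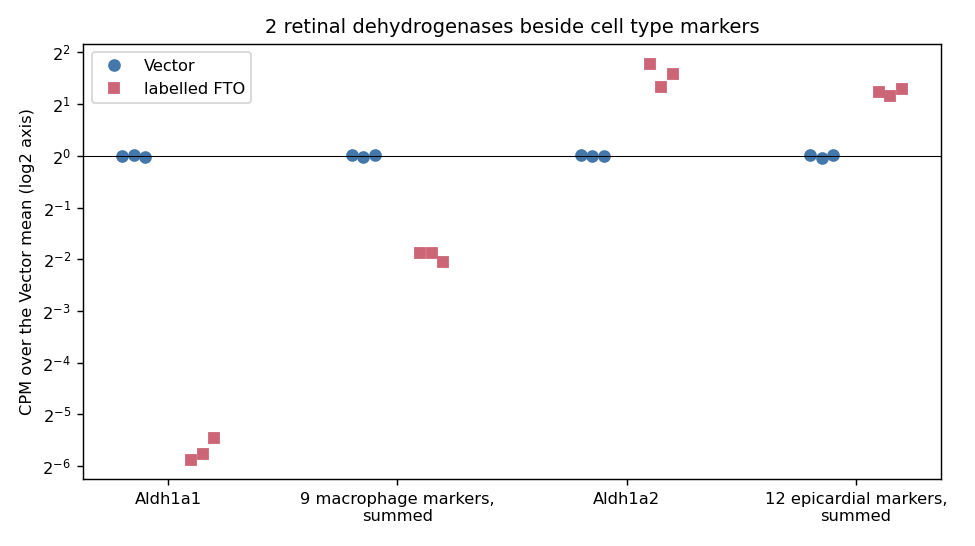
CPM of each library divided by the mean of the 3 Vector libraries (y axis, log2 scale) for Aldh1a1, the sum of 9 macrophage markers, Aldh1a2 and the sum of 12 epicardial markers. Circles are Vector and squares are libraries labelled FTO. The macrophage sum was 3.82-fold and Aldh1a1 51.7-fold lower, and the epicardial sum was 2.34-fold and Aldh1a2 2.97-fold higher. In the libraries labelled FTO the macrophage sum leans on Cd68, Mrc1 and Adgre1, and the epicardial sum on Msln and Tbx18, so neither stands for each marker.

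The genes with the most similar profile over the 6 libraries were then listed for Aldh1a2, which had the highest mean CPM of the 9 genes in both groups. Likeness was the Euclidean distance between log2(CPM + 0.5) profiles centred on each gene's mean, over 10041 other genes with a mean of at least 100 counts, and it rests almost wholly on the difference between the groups. Nearest to Aldh1a2 were Enc1 (distance 0.227), Enpp4 (0.232) and Tnfrsf11b (0.232). The same was done for Aldh1a1, Rarb and Cyp26b1 after their values were seen. Nearest to Aldh1a1 were C1qb (distance 0.169), a gene of the macrophage list, Stab1 (0.201) and Tgfb3 (0.556). The added 0.5 draws genes near 0 together, as C1qb had a log2 fold change of -7.67 and Aldh1a1 of -5.66. Nearest to Rarb were Sdk1 (0.182), Gja1 (0.186) and C1r (0.205), and nearest to Cyp26b1 were Smoc2 (0.241), Frk (0.290) and Ero1a (0.322).

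The genes next to the 9 on the chromosomes were also compared. Of 18 flanking protein-coding genes in RefSeq order, 13 were tested, with 2 higher, 9 lower and 2 not called in edgeR, beside 33.2% of all genes higher and 32.8% lower. Anxa1, the neighbour of Aldh1a1, rose from 356 to 681 CPM (log2 fold change 0.94, adjusted p = 1.7e-11 in edgeR) while Aldh1a1 was lower. Rarb lies between Thrb, which rose by 0.43 (adjusted p = 5.1e-04 in edgeR), and Top2b, which fell by 0.70 (adjusted p = 2.4e-09). Both neighbours of Crabp2, Isg20l2 (-0.32, adjusted p = 0.00455) and Nes (-3.14, adjusted p = 3.9e-10 in edgeR), fell, as Crabp2 was lower. Exoc6b (-0.18, adjusted p = 0.0165) and Dysf (-1.61, adjusted p = 1.4e-12 in edgeR), the neighbours of Cyp26b1, fell too, while Cyp26b1 was higher. This look at neighbours was chosen after the values of the 9 genes were seen.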

How the data were processed

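RNA-seq was done on 3 Vector libraries and 3 libraries labelled FTO. The deposited values are raw counts for each symbol, which the authors gave library by library. The submitters' processing notes name Trimmomatic and the rn6 build, while the aligner, counting program, annotation and strand setting are not given in the sources used here. Reads of overlapping, antisense or near-identical genes may therefore be split unevenly. Of 21857 symbols, 4691 had no count. Genes with few counts were dropped by edgeR's filterByExpr (minimum count of 10, leaving 12941 genes and 99.9% of counts). The rest were scaled by TMM (factors 0.995 to 1.005) and fitted with edgeR 4.0.16 in R 4.3.3, using its quasi-likelihood F test, two-sided, all 6 libraries, no covariate, with Benjamini-Hochberg adjustment over all genes tested. The SE was taken from the fold change and F statistic. The interval for Fto was built from this SE with fewer degrees of freedom than the F test used, so it is wider than that test would give. The procedure was tested on simulated counts. The study names only a threshold (log2 fold change of 1, p of 0.05), which 19.6% of tested genes passed in either direction.

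The retinoid genes and all lists were chosen with earlier results of these data known. Beyond the 9 genes, Rara, Rarg, Rxra, Rxrb, Rdh10 and Cyp26a1 were named, and per list up to 3 genes each way with the largest change among those called, not overlapping and with at least 50 counts on average. Lrat, Rxrg and other genes outside this rule were picked with their values in view. Of the symbols in the 5 further retinoid lists, 11 were not matched, some being older names of genes that were. In the marker lists Emr1 and Foxd3 were not matched. Within each group every pair of libraries differed beyond sampling noise (chi-square per degree of freedom 1.56 to 8.02). A floor of 3 counts was worth 0.168 to 0.228 CPM per library, and intervals on counts cover counting error only. Alternatives were DESeq2 1.42.0, limma-voom (limma 3.58.1), DESeq2 size factors, library size alone, no low-count filter, a mean of at least 10 counts, the replicate number as a block, and leaving out each library. No gene set test was run. Some genes that the rule picks are not reported here, although the counts by list include them.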

Additional observations from a re-analysis of the deposited data

How the results depend on the processing

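Over 13 alternatives, genes called numbered from 7795 to 9009, of the 9 retinoid genes from 4 to 7 (7 with no low-count filter, which lets in Stra6 and Crabp1), of the other pathway genes from 36 to 42, and of the cell type markers from 51 to 53. Fto stayed between 0.051 and 0.078 on the log2 scale. Aldh1a1 ran from -5.811 to -5.584, Aldh1a2 from 1.452 to 1.680, Rarb from 2.146 to 2.329, Cyp26b1 from 1.314 to 1.569 and Dhrs3 from 0.087 to 0.201. Aldh1a3 changed sign to -0.130 without FTO replicate 1 and was 0.260 without FTO replicate 2, when Crabp2 stood at -0.880, against -1.881 without FTO replicate 3. Of 51 other pathway genes, 11 changed their call or sign in at least 1 alternative, as 24 calls went, 10 came with no change of sign and 6 signs turned, 1 of these with a call gained. The signs that turned were those of Lrp1, at -0.006 with limma-voom, -0.010 with the replicate block, -0.030 and -0.002 without Vector replicate 1 or 3 and -0.141 without FTO replicate 3 (adjusted p = 0.0116 in edgeR, the call gained), and of Nrip1, at -0.014 without FTO replicate 3. Without FTO replicate 2 these genes reached 0.107 and 0.119. The cause was not tested. The median over all genes was 0.001, -0.000 and 0.009 on the log2 scale with TMM, DESeq2 size factors and library size alone. Replicate numbers gave no sign of pairing, as deviations from the group means correlated at 0.004, -0.079 and 0.035 for equal numbers. For unequal numbers the correlations ran from -0.115 to 0.109. With 3 libraries per group this cannot exclude a pairing. With the replicate block, the number of other pathway genes called was 41, and of the 9 retinoid genes 5. Stra6 and Crabp1 had too few counts for the low-count filter.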
